A study of Mus musculus with 56 samples.

Results

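The genes described here are those whose response to deletion of Odc differed from their response to deletion of Dohh in TH2 cells, the CD4+ helper T cells that make IL-4, IL-5 and IL-13. The series holds 56 mRNA sequencing samples of T cells polarized in vitro into TH1, TH2, TH17 and Treg cells, and 13 of them are the TH2 libraries used here. In one count table, 4 TH2 libraries were from WT mice and 3 from Odc-ΔT mice. In the other, 3 were from WT mice and 3 from Dohh-ΔT mice. One TH2 sample labelled Odc-/- (replicate 1) was not analysed here.

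For each gene the Odc effect is the log2 fold change of libraries labelled Odc-/- over the WT libraries of their own table, and the Dohh effect is the same for libraries labelled Dohh-/-. The difference is the Dohh effect minus the Odc effect, so it is above 0 where the gene stood relatively higher after Dohh deletion. Genes had to be expressed in both tables, and genes with at least 500 counts in one table and at most 5 in the other were left out (275 and 13 genes). Of 47937 genes in the tables, 12924 were tested. A difference was called at more than 2-fold with a Benjamini-Hochberg adjusted p below 0.05 in edgeR's quasi-likelihood test, and 1328 genes (10.3% of those tested) were called.

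The mice were typically 6 to 10 weeks old and of both sexes, and C57BL/6 is the strain named for wild-type mice. Odc-ΔT and Dohh-ΔT mice carried loxP sites around exons 9 to 11 of Odc or 2 to 4 of Dohh and a Cre driven by the CD4 promoter. The promoter acts in a CD4+ stage of thymic development that precursors of CD8+ T cells also pass through, so CD8+ T cells of these mice carry the deletion too. The controls had no Cre. Naive CD4+ T cells from spleen and lymph nodes, enriched by removal of other cells, were activated through CD3 and CD28 (antibodies at 5 and 2 μg/mL) with IL-2 at 100 U/mL. TH2 polarization until day 4 used IL-4 and IL-2, each at 10 ng/mL, and an antibody to IFN-γ at 4 μg/mL. Nothing in the labels says whether libraries of a group came from separate animals, so p-values measure the spread between these libraries.

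Ornithine decarboxylase (ODC) makes putrescine, the first polyamine, from ornithine, and putrescine is built up into spermidine and spermine. Spermidine is also the substrate from which deoxyhypusine synthase (DHPS) and then deoxyhypusine hydroxylase (DOHH) make hypusine, an amino acid found in the translation factor eIF5A and needed for its activity. Loss of ODC therefore lowers the synthesis of every polyamine and of the substrate of hypusine, whereas loss of DOHH blocks the last step of hypusine synthesis and leaves the enzymes of polyamine synthesis in place. The comparison asks where the responses to these losses differ in one T helper subset.

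Neither targeted gene had fallen, by the test of its own deletion, in the libraries meant to lack it. Odc1 (chr12:17544794-17551505, plus strand, GRCm38) had 487, 484 and 477 CPM (read counts scaled to library size) in libraries labelled Odc-/- and 480, 545, 498 and 711 CPM in their WT libraries, an Odc effect of -0.21 (standard error 0.18, adjusted p = 0.32). Dohh (chr10:81384428-81388352, plus strand) had 73.7, 91.4 and 96.3 CPM in libraries labelled Dohh-/- and 38.6, 48.0 and 36.9 CPM in their WT libraries, so every library labelled Dohh-/- stood above every WT library. It was higher by as much in libraries labelled Odc-/-, with 78.9, 77.03 and 77.9 CPM against 27.7, 37.6, 31.6 and 42.9 CPM. The counts cover all exons of a gene, so the deleted exons were not counted apart, and these values do not check the labels. Deletions are therefore named by label throughout.

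TH2 libraries held 6999984 to 8417521 counts in the Odc table and 8921978 to 12554463 in the Dohh table, and 3 counts, taken as the detection floor of a library, came to 0.258 to 0.425 CPM. CD4, the protein that defines the starting cells, was itself low in mRNA. Cd4 had 70.2, 53.5 and 55.5 CPM in libraries labelled Dohh-/-, 801, 711 and 702 CPM in their WT libraries, 326, 347 and 345 CPM in libraries labelled Odc-/- and 740, 714, 715 and 587 CPM in theirs. Summed over 9 γδ T cell genes, the level was 821 to 918 CPM in libraries labelled Dohh-/-, 149 to 162 in those labelled Odc-/- and 16.8 to 70.2 in WT libraries. For 11 B cell genes it was 923 to 1390 CPM in libraries labelled Odc-/- and 111 to 311 CPM in all others. Igkc, an antibody light chain gene in this sum, was at 0 in all 6 libraries of the Dohh table, and without it the sums were 627 to 973 and 98.9 to 264 CPM. For 15 basophil and mast cell genes the level was 88.6 to 601 CPM in libraries labelled Dohh-/-, 60.9 to 107 in those labelled Odc-/- and 6.36 to 14.6 in WT libraries, with Tpsab1 at 0 in all 13. The 15 myeloid genes summed to 1138 CPM in replicate 2 labelled Dohh-/-, to 104 and 317 CPM in replicates 1 and 3, and to at most 73.3 CPM elsewhere. The 8 CD8 T and NK cell genes summed to 86.7 to 181 CPM in libraries labelled Dohh-/- and 19.4 to 34.8 CPM elsewhere, the 8 erythroid genes to at most 28.7 CPM, and the 10 T cell genes to 2314 to 3701 CPM in the deleted groups and 3472 to 4461 CPM in WT libraries. In these bulk libraries, fewer cells of a type and less RNA per cell cannot be told apart.

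The sexes were not balanced either. The 3 libraries labelled Odc-/- had at most 0.387 CPM of Xist and expressed Y-linked genes, whereas among their WT libraries replicates 3 and 4 had Xist alone, replicate 2 had Y-linked genes alone and replicate 1 had both. Among libraries labelled Dohh-/-, replicate 1 had Xist, replicate 3 Y-linked genes and replicate 2 both, and among their WT libraries replicate 1 had Xist and the other two Y-linked genes. Of 409 tested genes on the X chromosome, 36 were called (8.80%), and of 6 on the Y chromosome none were. Counts were therefore also made from Xist-negative libraries alone, an alternative chosen after the data were seen that leaves 1 WT library of the Odc table and 1 library labelled Dohh-/- in TH2 cells. Its p-values take the spread from the other groups and assume that these lone libraries vary alike.

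By itself the Odc effect was called in 3078 genes (23.8%) and the Dohh effect in 3401 (26.3%). Of the 1328 called genes, 801 (6.20% of genes tested) had a difference above 0 and 527 (4.08%) below 0. The Dohh effect was the larger in size in 766 and the Odc effect in 562. Both effects had an adjusted p below 0.05 and the same sign in 149 genes above 0 and 97 below, the Dohh effect alone passed in 282 and 205, the Odc effect alone in 257 and 139, neither in 9 and 3, and in 187 genes (1.45% of genes tested) both passed with opposite signs. These opposed genes were lower in libraries labelled Odc-/- and higher in those labelled Dohh-/- in 104 cases, and the reverse in 83. The plot of one effect against the other shows the called genes on both sides of the line of equal effects, with the opposed genes at the upper left and lower right. With each of the 13 TH2 libraries left out in turn, 744 of the 1328 genes stayed called every time. Without replicate 2 labelled Odc-/- the opposed genes numbered 114. Xist-negative libraries alone gave 516 calls, 46.9% of them above 0, and 55 opposed genes.

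**Figure D1:**
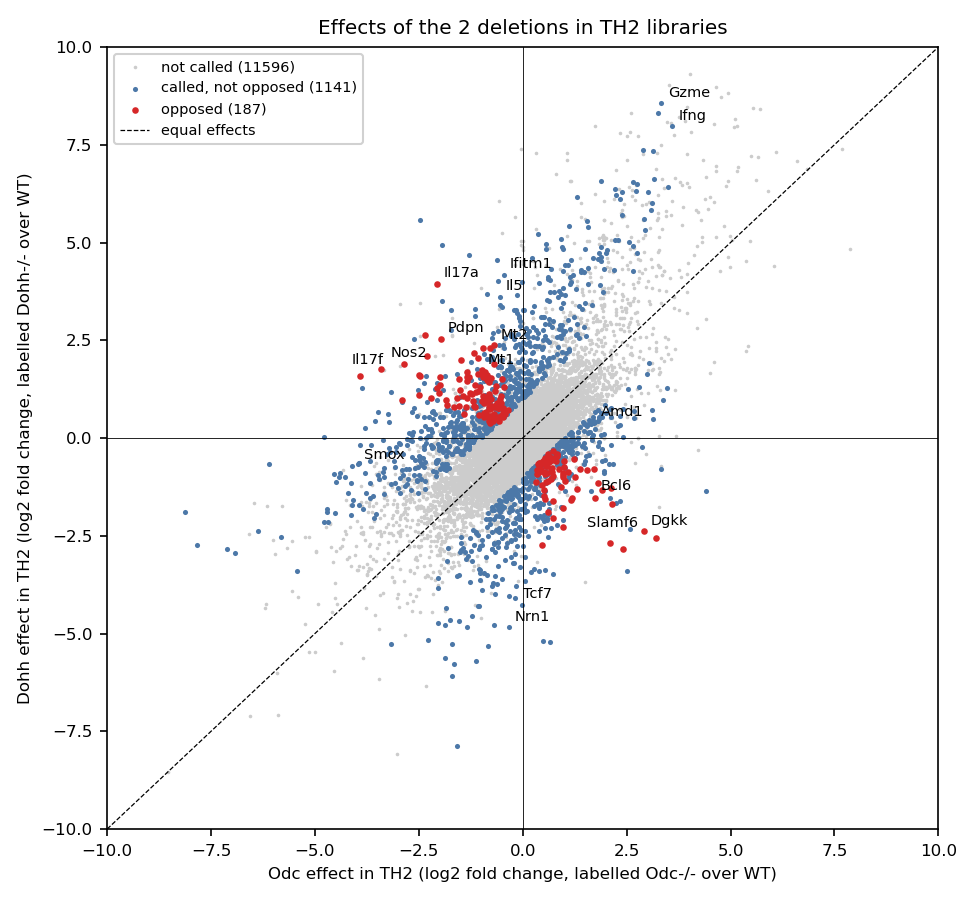
Each point is 1 of 12924 genes, with its Odc effect in TH2 libraries on the x axis and its Dohh effect on the y axis, both as log2 fold changes over WT. Blue points are genes called in the difference but not opposed, red points the 187 opposed genes, and grey points genes not called. Ifng and Gzme rose with both labels, whereas Il17a and Dgkk lie at the upper left and the lower right, off the dashed line of equal effects.

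Genes were ranked by difference among the 575 protein-coding genes that stayed called with each TH2 library left out and averaged at least 10 CPM in 1 or more of the 4 groups. The largest difference belonged to an opposed gene, Il17a, which encodes IL-17A, the cytokine that gives TH17 cells their name. It had 4.39, 2.51, 5.06 and 13.03 CPM in WT libraries and 0.517, 3.01 and 0.885 CPM in libraries labelled Odc-/- of one table, and 8.60, 4.43 and 2.98 CPM in WT libraries and 101, 32.7 and 120 CPM in libraries labelled Dohh-/- of the other. All libraries labelled Dohh-/- stood above every other library, and 2 of the 3 labelled Odc-/- stood below every other, while the third overlapped WT. The Odc effect was -2.05 (standard error 0.69, adjusted p = 0.0112), the Dohh effect 3.95 (standard error 0.55, adjusted p = 1.46e-07) and the difference 6.00 (standard error 0.86, adjusted p = 3.25e-06).

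Its neighbour Il17f, which encodes the related cytokine IL-17F, fell from 10.7, 18.2, 11.1 and 39.7 CPM to 0.646, 2.00 and 1.26 CPM in libraries labelled Odc-/- and rose from 7.22, 5.10 and 4.88 CPM to 24.9, 9.56 and 17.7 CPM in those labelled Dohh-/-. Neither pair of groups overlapped. The Odc effect of -3.90 was here the larger, against a Dohh effect of 1.58, and the difference was 5.49 (standard error 0.78, adjusted p = 2.95e-06). Libraries labelled Dohh-/- averaged 17.4 ± 7.65 CPM (SD, n = 3) and those of WT in the Odc table averaged 19.9 ± 13.6 CPM (SD, n = 4), so the WT level differed between the tables too. The γδ T cell genes given above, of a cell type that can make IL-17, were also highest in libraries labelled Dohh-/-, and they stood above WT in libraries labelled Odc-/- as well. Their part in the Il17a and Il17f values was not tested.

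Since these neighbours moved together, their promoters are shown (RefSeq, GRCm38.p6, from 250 bases before to 50 after the start, 5′ to 3′ on the strand of the gene). Capitals mark the letters AGGTCA on either strand, a half-site bound by nuclear receptors. Each promoter holds 1 match, and 16.3% of 32851 mouse promoters of this length hold at least 1. The stretches are chr1:20730655-20730954 (plus strand) for Il17a and chr1:20784221-20784520 (minus strand) for Il17f.
Il17a: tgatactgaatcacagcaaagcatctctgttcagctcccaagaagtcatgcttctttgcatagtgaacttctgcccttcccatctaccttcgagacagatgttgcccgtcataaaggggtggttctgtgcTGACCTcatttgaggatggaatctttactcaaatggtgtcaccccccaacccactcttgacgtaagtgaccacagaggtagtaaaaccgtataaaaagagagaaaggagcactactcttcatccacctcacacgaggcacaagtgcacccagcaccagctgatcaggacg
Il17f: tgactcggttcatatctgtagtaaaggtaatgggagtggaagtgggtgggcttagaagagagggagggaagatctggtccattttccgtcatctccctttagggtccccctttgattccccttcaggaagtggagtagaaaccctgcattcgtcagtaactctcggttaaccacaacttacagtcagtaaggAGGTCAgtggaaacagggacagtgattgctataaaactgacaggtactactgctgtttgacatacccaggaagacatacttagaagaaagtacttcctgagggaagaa

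Il23r, which encodes a receptor that maintains TH17 cells, rose only with the Dohh label by the test of each effect (7.46 ± 3.58 against 0.844 ± 0.480 CPM, SD, n = 3 each), a difference of 3.17 (standard error 0.73, adjusted p = 0.00176). Of 17 tested genes of the TH17 program, 7 were called above 0 and 1, Il6ra, below 0 (-2.86 at adjusted p = 4.35e-06), against 6.20% and 4.08% of all genes, and 3 were called in Xist-negative libraries.

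The other opposed genes with positive differences included Nos2, which encodes inducible nitric oxide synthase. Nos2 went from 37.7, 38.2, 44.3 and 42.9 CPM to 1.94, 5.89 and 3.54 CPM in libraries labelled Odc-/-, and from 7.31, 7.09 and 7.50 CPM to 10.2, 42.1 and 21.8 CPM in libraries labelled Dohh-/-. The groups did not overlap in either table. However, the WT libraries of the tables differed by more than the libraries labelled Dohh-/- differed from their own. The difference was 5.18 (standard error 0.79, adjusted p = 7.89e-06). Libraries labelled Dohh-/- stood in the order of their myeloid sum, which was 104, 1138 and 317 CPM in replicates 1 to 3. The part of myeloid cells in the Nos2 values was not tested. Pdpn, which encodes podoplanin, a surface glycoprotein, fell from 4.52, 5.16, 4.93 and 5.95 to 0.517, 2.63 and 0.759 CPM and rose from 3.44, 3.55 and 2.38 to 10.8, 20.7 and 23.6 CPM, a difference of 4.50 (standard error 0.65, adjusted p = 3.28e-06). All libraries labelled Dohh-/- lay above the WT libraries of both tables, and 2 of the 3 labelled Odc-/- lay below them.

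Tuba8, an alpha tubulin gene, had a difference of 3.86 (standard error 0.63, adjusted p = 2.26e-05), with an Odc effect of -2.89 and a Dohh effect of 0.97. Its libraries labelled Dohh-/- had 10.3, 32.6 and 28.1 CPM and overlapped their WT libraries at 13.5, 12.1 and 10.6 CPM through replicate 1. For Cd93, which encodes a C-type lectin-like receptor, the libraries labelled Odc-/- (10.6, 19.2 and 11.6 CPM) all lay below their WT libraries (95.96, 64.3, 112 and 41.2 CPM). Those labelled Dohh-/- (89.6, 59.6 and 37.5 CPM) overlapped theirs (46.5, 18.5 and 20.8 CPM), and the difference was 3.61 (standard error 0.59, adjusted p = 2.53e-05). Il18r1, the receptor chain through which IL-18 promotes IFN-γ, and Entpd1, which encodes the ectonucleotidase CD39, were opposed in the same direction, with differences of 3.54 (standard error 0.49, adjusted p = 1.22e-06) and 3.48 (standard error 0.54, adjusted p = 9.28e-06).

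Opposed genes with negative differences rose with the Odc label and fell with the Dohh label. Dgkk (chrX:6779306-6948363, plus strand), which encodes diacylglycerol kinase kappa, an enzyme that removes the second messenger diacylglycerol, had the largest of them. It rose from 7.08, 8.73, 8.52 and 17.0 CPM to 70.4, 91.4 and 71.7 CPM in libraries labelled Odc-/- and fell from 5.42, 3.99 and 5.83 CPM to 0.648, 1.26 and 0.996 CPM in those labelled Dohh-/-. No 2 of the 4 groups overlapped, and the difference was -5.29 (standard error 0.66, adjusted p = 8.23e-07). Dgkk is X-linked, and in Xist-negative libraries alone its difference was -5.45. The WT group of the Odc table and the group labelled Dohh-/- each had only 1 library there.

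Slamf6, which encodes a SLAM family receptor found on T and B cells, went from 10.3, 12.04, 12.8 and 18.8 to 84.1, 40.8 and 52.6 CPM and from 11.6, 21.9 and 18.7 to 4.97, 4.94 and 6.20 CPM. All libraries labelled Odc-/- stood at the top and all labelled Dohh-/- at the bottom of the 13, and the difference was -3.83 (standard error 0.46, adjusted p = 1.06e-07). Bcl6, the transcription factor that directs follicular helper T cells, followed the same order at lower levels, with 3.54, 3.04, 2.80 and 4.11 and 16.3, 9.14 and 8.22 CPM in the Odc table and 4.21, 3.99 and 5.36 and 2.05, 1.16 and 1.44 CPM in the Dohh table, a difference of -3.26 (standard error 0.60, adjusted p = 0.000136). Tox, a regulator of chronically stimulated T cells, was detected weakly (6.64 ± 3.63 CPM in libraries labelled Odc-/-, no more than 3 counts in any library labelled Dohh-/-). Its call was likewise negative with an Odc effect of 2.42 (adjusted p = 4.12e-05). B cells also express Slamf6 and Bcl6, and the B cell genes were highest in libraries labelled Odc-/-. In the Dohh table the B cell sum was 136 to 185 CPM in libraries labelled Dohh-/- and 118 to 205 CPM in WT libraries. The part of B cells in these values was not tested.

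Tnfsf4, which encodes OX40 ligand, had a difference of -3.26 (standard error 0.67, adjusted p = 0.000534), and its libraries labelled Odc-/- (30.9, 12.2 and 17.2 CPM) overlapped their WT libraries (5.86, 9.52, 6.79 and 18.8 CPM). In Xist-negative libraries it was -3.16 (adjusted p = 0.14 from edgeR's test) and was not called. Sys1, which encodes a Golgi membrane protein, and Zhx2, a transcriptional repressor gene, had differences of -3.20 (standard error 0.35, adjusted p = 1.8e-08) and -2.78 (standard error 0.37, adjusted p = 8.23e-07). The rise of Sys1 with the Odc label was small (0.47), and its WT libraries differed between the tables (29.02 ± 1.82 CPM, SD, n = 4, against 6.79 ± 0.474 CPM, SD, n = 3).

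**Figure D2:**
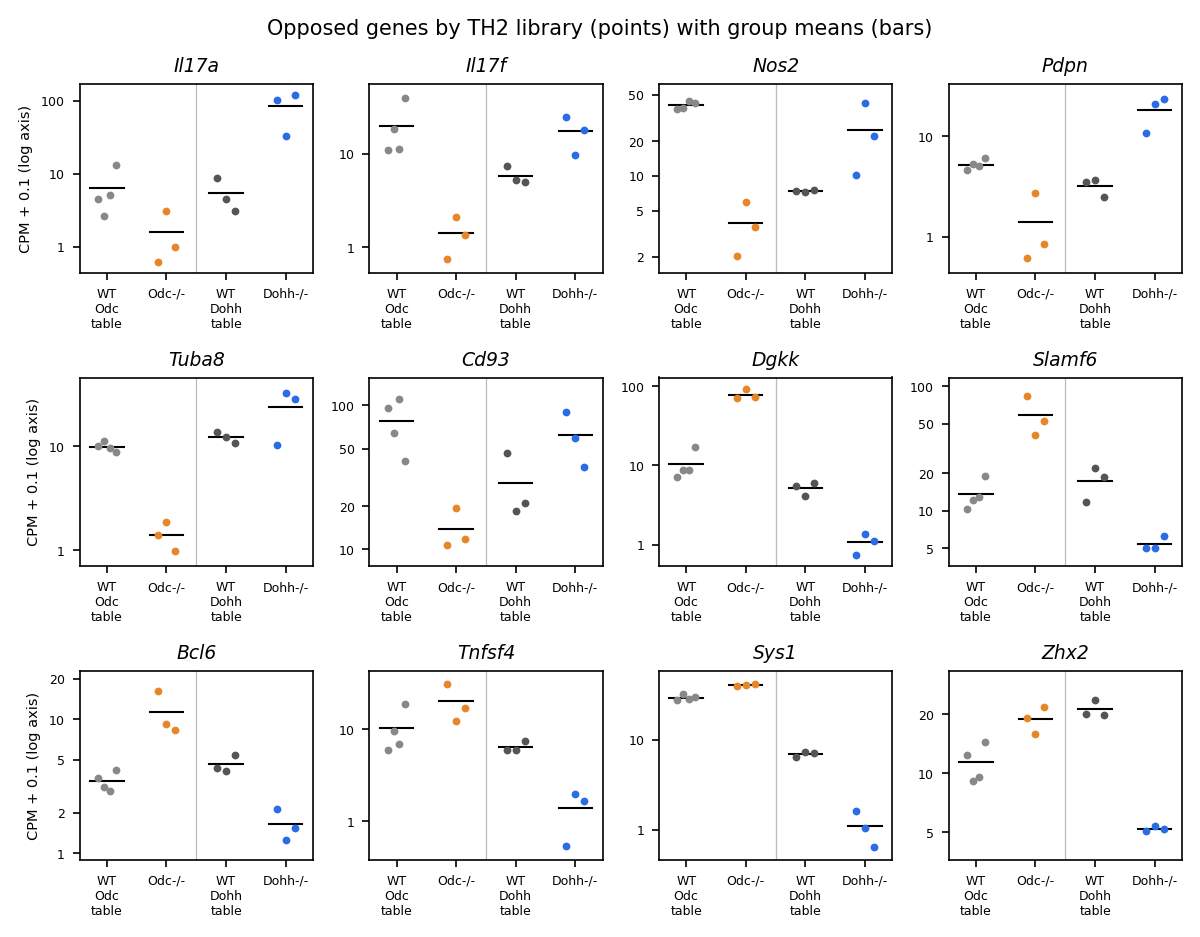
Each panel is 1 opposed gene in the 13 TH2 libraries, in CPM plus 0.1 on a log axis, with points for libraries and bars for group means; a grey line parts the tables. The top row and the left of the middle row (Il17a to Cd93) fall with the Odc label and rise with the Dohh label, and the panels from Dgkk to Zhx2 do the reverse, with overlap between a deleted group and its WT group in Il17a, Tuba8, Cd93 and Tnfsf4.

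Over all 187 opposed genes, the libraries of both tables were separated without overlap, in opposite directions, in 147. Of all genes tested 3.92% were so separated, and because the opposed genes were picked from these libraries the count is a description. The gap between the deleted groups exceeded that between the WT groups in 152 of the 187 (81.3%, against 62.1% of all genes tested), on log2 mean CPM plus 0.5. In 14, and in 543 of all 12924 genes, the WT groups differed by more than 2-fold against the direction of the difference and the deleted groups did not differ by more than 2-fold along it. The tables hold separate libraries, so a gap across tables cannot be told apart from the table.

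Metallothioneins, small cysteine-rich proteins that bind zinc and other metals and are induced by metals and glucocorticoids, were among the opposed genes. Mt1 fell from 394, 539, 490 and 605 CPM to 177, 366 and 223 CPM in libraries labelled Odc-/- and rose from 294, 304 and 137 CPM to 953, 792 and 709 CPM in those labelled Dohh-/-, with no overlap in either table and a difference of 2.73 (standard error 0.44, adjusted p = 1.6e-05). Mt2 moved the same way, from 199, 267, 247 and 298 to 124, 225 and 125 CPM and from 121, 97.2 and 41.2 to 418, 442 and 484 CPM, a difference of 3.05 (standard error 0.43, adjusted p = 2.29e-06), and its libraries labelled Odc-/- overlapped their WT libraries. Mt3, their neighbour, was not opposed: it rose with both labels, from 1.47, 0.793, 1.33 and 3.83 to 10.2, 15.5 and 10.9 CPM and from 2.32, 1.77 and 1.19 to 192, 109 and 129 CPM, more so with the Dohh label (difference 3.57 with standard error 0.83 and adjusted p = 0.00193). In the annotation 73.5% of the exon length of Mt2 overlaps another gene, and near-identical copies could share reads.

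The promoters of these neighbours are shown with capitals for the metal response element core, searched as TGCACNC and TGCGCNC on both strands with overlapping matches merged, which is bound by the zinc sensor MTF-1. The stretches are chr8:94178839-94179138 for Mt1, chr8:94172368-94172667 for Mt2 and chr8:94152357-94152656 for Mt3, all on the plus strand (RefSeq, GRCm38.p6). They hold 3, 4 and 1 matches, and of 32851 promoters 25.7% hold at least 1, 1.23% at least 3 and 0.265% at least 4.
Mt1: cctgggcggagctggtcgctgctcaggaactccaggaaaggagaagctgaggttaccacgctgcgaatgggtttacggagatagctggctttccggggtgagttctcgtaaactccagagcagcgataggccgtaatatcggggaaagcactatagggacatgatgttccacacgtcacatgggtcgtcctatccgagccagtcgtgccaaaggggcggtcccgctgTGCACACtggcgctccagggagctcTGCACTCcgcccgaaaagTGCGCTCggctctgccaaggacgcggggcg
Mt2: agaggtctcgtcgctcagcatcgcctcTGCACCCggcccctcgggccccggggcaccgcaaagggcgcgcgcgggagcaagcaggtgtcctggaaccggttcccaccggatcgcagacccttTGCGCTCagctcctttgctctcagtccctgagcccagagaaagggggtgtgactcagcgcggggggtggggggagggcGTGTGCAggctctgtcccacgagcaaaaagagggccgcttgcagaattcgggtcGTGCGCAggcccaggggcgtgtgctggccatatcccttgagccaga
Mt3: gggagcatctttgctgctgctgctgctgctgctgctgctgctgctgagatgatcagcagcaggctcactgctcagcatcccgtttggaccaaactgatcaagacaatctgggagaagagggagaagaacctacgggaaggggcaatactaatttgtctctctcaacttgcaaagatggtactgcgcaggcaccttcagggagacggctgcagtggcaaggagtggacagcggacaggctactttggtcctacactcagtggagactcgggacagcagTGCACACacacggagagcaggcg

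Of 20 tested genes of metallothioneins and the oxidative stress response, 7 were called, all above 0, against 6.20% of all genes. Besides the metallothioneins these were Osgin1, also opposed (3.02 at adjusted p = 0.00156), and Hmox1, Srxn1 and Gsr, which encode heme oxygenase, sulfiredoxin and glutathione reductase, with differences of 2.33 (adjusted p = 0.00064), 1.79 (adjusted p = 0.00192) and 1.35 (adjusted p = 0.00102). For these 3 the Odc effects did not pass the test and the Dohh effects were 2.41, 2.27 and 1.16. The count was 7 with each TH2 library left out and 5 in Xist-negative libraries.

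Among TH2 cytokine genes Il5, Il13 and Il10 were called above 0 and Il4 was not. Il5, which drives eosinophil growth, had 340, 209 and 303 CPM in libraries labelled Dohh-/- against 24.2, 24.9 and 20.2 CPM in WT, and 21.8, 52.5 and 23.7 CPM in libraries labelled Odc-/- against 39.3, 37.7, 42.5 and 72.2 CPM, a difference of 4.17 (standard error 0.47, adjusted p = 3.8e-08). Only the libraries labelled Dohh-/- stood apart. Il13 had 2034, 1387 and 1585 CPM in those libraries, above the 244, 264 and 194 CPM of WT, and 657, 730 and 568 CPM against 276, 317, 347 and 648 CPM in the Odc table, where the groups overlapped, a difference of 2.12 (standard error 0.51, adjusted p = 0.00287). Il10, an anti-inflammatory cytokine gene of TH2 cells, differed by 2.74 (standard error 0.43, adjusted p = 1.09e-05), with 346, 276 and 326 CPM in libraries labelled Dohh-/- and 134, 221 and 165 CPM in those labelled Odc-/-, but with WT levels that also differed, at 45.6, 43.9 and 44.99 and 193, 151, 151 and 161 CPM.

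Il4, the cytokine gene that defines the lineage, had 35.8, 44.6 and 54.01 CPM and 59.2, 54.5 and 32.98 CPM in libraries labelled Odc-/- and Dohh-/-, overlapping the WT libraries (65.9, 60.6, 69.2 and 35.1 and 55.3, 66.2 and 74.7 CPM), and a difference of -0.05 (standard error 0.50, adjusted p = 0.959). Gata3, the TH2 master regulator, was lower with both labels (-0.88 with standard error 0.21 and adjusted p = 0.000476 and -0.59 with standard error 0.22 and adjusted p = 0.0208), and the difference of 0.29 (standard error 0.30, adjusted p = 0.539) was not called. Of 22 tested genes of the TH2 program, 5 were called above 0 (also Il1rl1 and Maf) and 1, Irf4, below 0 (-1.34 at adjusted p = 4.19e-05), against 6.20% and 4.08% of all genes, and 3 were called in Xist-negative libraries. Il1rl1, which encodes the IL-33 receptor and is also a basophil and mast cell gene, lost its call without any 1 of 11 libraries (differences 2.29 to 2.89, adjusted p 0.0554 to 0.109), and Maf, a regulator of IL-4, without any 1 of 8 (1.21 to 1.58, adjusted p 0.0536 to 0.135).

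Ifng, which encodes the signature cytokine of TH1 cells, rose with both labels, and more with the Dohh label. It had 102, 104 and 63.6 CPM in libraries labelled Odc-/- against 6.84, 3.57, 7.06 and 12.3 CPM, and 432, 391 and 1566 CPM in those labelled Dohh-/- against 3.87, 2.66 and 2.86 CPM, a difference of 4.37 (standard error 0.77, adjusted p = 7.9e-05). Tbx21, which encodes the TH1 regulator T-bet, also rose with both (1.99 and 3.00), but its difference of 1.01 (standard error 0.50, adjusted p = 0.156) did not pass. Of 23 tested TH1 program genes, 9 were called above 0 and Lta, which encodes lymphotoxin alpha, below 0 (-1.71 at adjusted p = 0.0179), a call lost without replicate 2 labelled Odc-/- (-1.57, adjusted p = 0.0596). Of all genes 6.20% were called above 0 and 4.08% below, and in Xist-negative libraries 6 of the 23 were called. Fasl, the death receptor ligand gene, rose only with the Dohh label by the tests of each effect (2.87, Odc effect -0.50 at adjusted p = 0.196), while Runx3, a partner of T-bet, was opposed (-0.71 and 0.45).

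Among 18 tested Treg program genes, 5 were called above and 4 below 0, against 6.20% and 4.08% of all genes. Nrp1, which encodes neuropilin 1, was opposed (1.17 with the Odc label and -1.58 with the Dohh label), and Izumo1r and Gpr83, surface receptor genes, were lower with the Dohh label (differences -2.66 at adjusted p = 1.55e-05 and -2.33 at adjusted p = 0.000204). Izumo1r also fell with the Odc label (-0.85 at adjusted p = 0.0132). The count of 9 became 5 without replicate 1 labelled Dohh-/- or replicate 2 labelled Odc-/-, and 2 in Xist-negative libraries. Foxp3 had at most 6.07 CPM in any library and a difference of -1.17 (standard error 0.79, adjusted p = 0.323), which was not called.

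**Figure D3:**
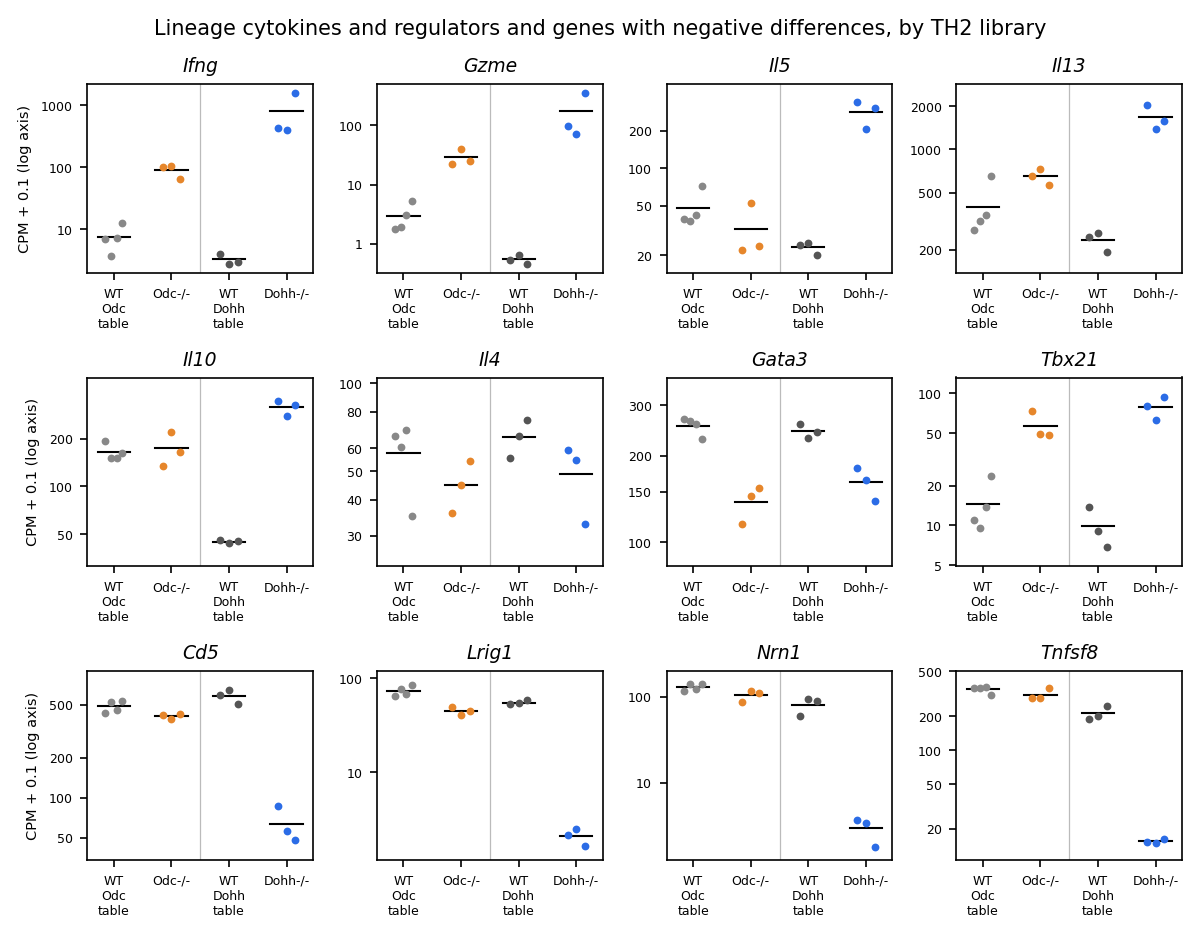
Each panel is 1 gene in the 13 TH2 libraries, in CPM plus 0.1 on a log axis, with points for libraries and bars for group means; a grey line parts the tables. Ifng, Gzme, Il5 and Il13 were highest in the 3 libraries labelled Dohh-/-, Il4, Gata3 and Tbx21 had no called difference, and Cd5, Lrig1, Nrn1 and Tnfsf8 were lowest in libraries labelled Dohh-/-.

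The cytotoxic granule genes, which encode proteases and the pore protein that kill target cells, were called above 0 in 11 of 18 and below 0 in none, against 6.20% and 4.08% of all genes. Gzme rose from 1.71, 1.85, 2.93 and 5.10 CPM to 22.6, 39.3 and 25.2 CPM in libraries labelled Odc-/- and from 0.430, 0.554 and 0.357 CPM to 96.9, 70.7 and 356 CPM in those labelled Dohh-/-, a difference of 5.23 (standard error 1.08, adjusted p = 0.00064). Gzmg and Gzmd moved in parallel (differences 5.05 with standard error 1.24 and adjusted p = 0.00366 and 4.20 with standard error 1.01 and adjusted p = 0.00304), but these granzymes are close copies that could share reads. Gzma rose with the Dohh label alone by the tests of each effect, from 239 to 4738 CPM on average, while it had 196 and 311 CPM in the Odc table. Gzmb, Prf1 and Nkg7 rose with both labels (differences 2.77 at adjusted p = 0.0011, 2.46 at adjusted p = 0.00874 and 3.30 at adjusted p = 3.11e-07). Only Ctsw, which encodes the protease cathepsin W, was opposed (-1.02 and 1.31). In Xist-negative libraries alone 4 of the 18 were called, where Gzme had a difference of 5.58 (adjusted p = 0.174 from edgeR's test) and Gzmg an adjusted p of 0.124.

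Natural killer receptor genes followed, with 5 of 18 called, all above 0 against 6.20% of all genes, and 2 in Xist-negative libraries. Klrc1 and Klrd1, which encode the subunits of an inhibitory receptor pair, had differences of 3.57 (standard error 0.61, adjusted p = 4.32e-05) and 2.96 (standard error 0.50, adjusted p = 3.36e-05), and in both the Dohh effect alone passed the test. The CD8 T and NK cell marker sum was also highest in libraries labelled Dohh-/-, as was the γδ sum, and their part in the granzyme and receptor values was not tested. Most of the CD8 T and NK cell sum came from Klrk1 and Klrd1 (41.5, 26.9 and 55.5 and 53.1, 24.4 and 56.2 CPM in libraries labelled Dohh-/-), while Ncr1, an NK cell receptor gene, had at most 0.108 CPM there. Eomes, in the same list, had 16.1, 8.61 and 35.2 CPM with the Dohh label against 1.89, 0.665 and 1.19 CPM in WT. With the Odc label it had 11.2, 3.63 and 7.08 CPM against 0.977, 0.661, 1.997 and 0.992 CPM. Cd8b1 had 7.35, 7.35 and 9.85 CPM with the Dohh label, below every WT library of that table (at least 15 CPM), whereas Cd8a went from 3.64 ± 1.01 to 14.2 ± 7.05 CPM (SD, n = 3 each) with the Dohh label, and its difference of 3.19 (adjusted p = 0.0233) was lost without any 1 of 3 libraries (2.77 to 3.08, adjusted p 0.0507 to 0.0672).

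T cell chemokine genes were called above 0 in 6 of 16, and chemokine receptor genes in 5 of 14, against 6.20% of all genes. The 6 became 3 without WT replicate 3 of the Dohh table or replicate 2 labelled Odc-/-, and each count became 1 in Xist-negative libraries. Ccl4 and Ccl9, which encode attractants of monocytes and T cells, rose with both labels (differences 2.89 with standard error 0.63 and adjusted p = 0.000936 and 2.92 with standard error 0.85 and adjusted p = 0.0131), as did Cxcr6, a homing receptor gene (2.77 with standard error 0.62 and adjusted p = 0.00147). Ccl17 and Ccl24 were called as well, but without replicate 2 labelled Dohh-/-, the library with the high myeloid sum, their differences were 2.74 (adjusted p = 0.107) and 2.67 (adjusted p = 0.211 from edgeR's test), and omission of 7 and 8 other libraries also ended the calls (adjusted p up to 0.0839 and 0.102). S1pr1 and Cxcr4, which guide cells out of and into lymphoid tissue, fell with the Odc label alone by the tests of each effect (-1.44 with standard error 0.37 and adjusted p = 0.00112 for Cxcr4 and -1.62 with standard error 0.35 and adjusted p = 0.000182 for S1pr1), with Dohh effects of 0.39 (adjusted p = 0.396) and 0.18 (adjusted p = 0.692). Spp1, which encodes osteopontin, rose with both. It went from 5.00 ± 1.42 (SD, n = 4) to 23.2 ± 12.3 CPM and from 3.10 ± 0.611 to 259 ± 175 CPM (SD, n = 3 each). The difference was 4.15 (standard error 0.89, adjusted p = 0.000882). With the Dohh label Spp1 had 85.4, 435 and 257 CPM in replicates 1 to 3, so replicate 2, with the high myeloid sum, was highest. The part of myeloid cells in these values was not tested.

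Ifitm1, an interferon-inducible membrane protein gene, rose from 84.4, 42.02 and 35.2 CPM to 1196, 753 and 990 CPM with the Dohh label. Libraries labelled Odc-/- had 11.4, 55.9 and 19.4 CPM, around their WT libraries at 32.96, 23.9, 49.8 and 52.3 CPM, and the difference was 4.64 (standard error 0.63, adjusted p = 1.21e-06). Ocstamp, which encodes a protein needed for osteoclast fusion, and Gm5483, annotated as a predicted coding gene, were the others of the 8 largest positive differences (5.00 with standard error 1.16 and adjusted p = 0.00187 and 4.80 with standard error 1.22 and adjusted p = 0.00443). Gm5483 differed by its fall in libraries labelled Odc-/-, from 45.3, 39.7, 45.3 and 19.6 to 0.387, 3.26 and 0.380 CPM, whereas its Dohh effect was 0.02 (adjusted p = 0.989). For both genes replicate 2 labelled Dohh-/- was above replicates 1 and 3 (2.27, 30.1 and 6.31 CPM of Ocstamp and 6.70, 47.1 and 9.85 CPM of Gm5483), and neither was called in Xist-negative libraries.

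The largest negative differences came mostly from genes that fell with the Dohh label and moved less or not at all with the Odc label. Lrig1 (chr6:94604529-94700158, minus strand), which encodes a membrane inhibitor of growth factor receptor signalling, had 2.05, 2.42 and 1.55 CPM in libraries labelled Dohh-/- against 53.2, 54.2 and 58.3 CPM in WT, and 49.98, 41.1 and 45.3 CPM in those labelled Odc-/- against 64.95, 76.3, 67.4 and 85.6 CPM, a difference of -4.08 (standard error 0.34, adjusted p = 1.68e-11). Nrn1, which encodes neuritin, had 3.57, 3.26 and 1.66 CPM against 59.8, 94.7 and 88.7 CPM, and 87.95, 116 and 110 CPM against 117, 142, 126 and 144 CPM, a difference of -4.49 (standard error 0.65, adjusted p = 3.95e-06). In both genes the libraries labelled Dohh-/- lay more than 10-fold below all others.

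Tnfsf8, which encodes CD30 ligand, a T cell costimulatory protein, had 15.3, 14.8 and 16.1 CPM in libraries labelled Dohh-/- and 190, 201 and 247 CPM in WT, while those labelled Odc-/- had 289, 289 and 353 CPM and overlapped the 359, 352, 360 and 310 CPM of WT. The difference was -3.63 (standard error 0.42, adjusted p = 5.81e-08). Cd40lg, the B cell help ligand gene on the X chromosome, fell in parallel (difference -3.10 with standard error 0.46 and adjusted p = 4.5e-06). Tcf7, which encodes TCF-1, a factor of naive and memory T cells, had 0.648, 1.16 and 0.332 CPM with the Dohh label against 13.2, 12.3 and 12.1 CPM, a difference of -3.91 (standard error 0.74, adjusted p = 0.000197), but its WT libraries of the Odc table had 110, 91.8, 95.1 and 84.9 CPM. St8sia6, a sialyltransferase gene, and Ckmt1, a mitochondrial creatine kinase gene, were low only with the Dohh label (differences -4.25 with standard error 0.67 and adjusted p = 1.51e-05 and -3.71 with standard error 0.65 and adjusted p = 6.09e-05).

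Of 26 tested naive and memory T cell genes, 12 were called, 8 of them below 0 against 4.08% of all genes. Besides Tcf7, Slamf6 and Bcl6, these were Id3, Klf3, Bach2, Actn1 and Lef1 (differences from -1.14 to -1.92), and S1pr1, Prdm1, Id2 and Cd27 were called above 0. The calls of Klf3, Cd27 and Actn1 were lost without any 1 of 7, 5 and 1 libraries (adjusted p up to 0.18, 0.073 and 0.0567). In Xist-negative libraries 7 of the 26 were called. Prdm1, which encodes BLIMP-1, a repressor of Bcl6, rose with both labels and more with the Dohh label (1.61 at adjusted p = 0.00441). Coinhibitory receptors and Tox were called in 10 of 15 tested, 7 above and 3 below 0 against 6.20% and 4.08% of all genes, and in 4 in Xist-negative libraries. Havcr2, which encodes TIM-3, rose with both labels (difference 2.69 with standard error 0.65 and adjusted p = 0.00307), Btla and Cd200 fell more with the Dohh label (differences -2.98 at adjusted p = 5.74e-08 and -2.05 at adjusted p = 1.44e-07), and Ctla4 and Vsir fell with the Odc label, with Dohh effects of 0.42 (adjusted p = 0.403) and -0.57 (adjusted p = 0.165).

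Of 20 genes of the T cell receptor complex and its coreceptors, 2 were called above 0 and 4 below, against 6.20% and 4.08% of all genes. Cd5 and Cd6, which encode inhibitory surface receptors of T cells, had no Odc effect past the test (411 ± 18.1 CPM of Cd5, SD, n = 3, against 487 ± 50.5 CPM, SD, n = 4) and fell with the Dohh label (63.5 ± 20.4 against 582 ± 68.8 CPM, SD, n = 3 each), with differences of -2.95 (standard error 0.29, adjusted p = 2.05e-09) and -2.78 (standard error 0.26, adjusted p = 6.07e-10). Cd4 fell with both, more so with the Dohh label, a difference of -2.60 (standard error 0.36, adjusted p = 1.66e-06). Thy1, which encodes the T cell surface protein Thy-1, was opposed and higher with the Dohh label (-0.52 and 1.08). γδ T cells commonly lack CD4 and have less CD5, and the γδ sum was highest in libraries labelled Dohh-/-. Its part in these falls was not tested. Among the γδ genes themselves, Trdc had 436, 336 and 294 CPM with the Dohh label and 50.2, 54.6 and 48.2 CPM with the Odc label, against 34.05, 24.9 and 20.9 and 13.4, 8.33, 17.4 and 14.02 CPM in WT, a difference of 1.79 (standard error 0.39, adjusted p = 0.00108). Of these 9 genes 3 were called, all above 0 against 6.20% of all genes. The call of Tcrg-C2, one of the 3, was lost without any 1 of 4 libraries (1.44 to 1.63, adjusted p up to 0.0621 from edgeR's test).

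Of 11 B cell markers 8 were tested and 4 were called, all below 0 against 4.08% of all genes. Of these 4, Pax5 lost its call without any 1 of 9 libraries (differences -2.19 to -2.74, adjusted p up to 0.18 from edgeR's test). Fcer2a, the low-affinity IgE receptor gene, had 110, 26.9 and 34.4 CPM in libraries labelled Odc-/- against 7.33, 8.07, 10.4 and 27.6 CPM, and 2.16, 0.420 and 1.44 against 3.61, 3.88 and 4.17 CPM in the Dohh table, a difference of -3.63 (standard error 0.87, adjusted p = 0.00277). Of the libraries labelled Odc-/-, 2 stood above all others and the remaining one overlapped WT. Ighm, which encodes the IgM heavy chain, followed (difference -1.95 with standard error 0.52 and adjusted p = 0.0062), and none of the 4 was called in Xist-negative libraries. The other marker lists had 1 of 13 basophil and mast cell genes, 2 of 13 myeloid, 1 of 2 erythroid, 3 of 7 CD8 T and NK cell, and 3 of 10 T cell genes called, where 10.3% of all genes were. The basophil and mast cell call, Hdc, was lost without any 1 of 7 libraries (adjusted p up to 0.0859), and Fcgr3, one of the myeloid calls, without any 1 of 4, replicate 2 labelled Dohh-/- among them (2.82, adjusted p = 0.108 from edgeR's test). Without replicate 3 labelled Odc-/-, 5 of the T cell genes were called.

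Of 21 tested genes of polyamine metabolism and transport, 4 were called (19.0%, against 10.3% of all genes), 1 above 0 and 3 below, and in each of the 4 the Odc effect was the larger in size. The number of members called, other genes included, was 1 without replicate 2 labelled Odc-/- or in Xist-negative libraries and 2 without any 1 of 6 other libraries. Amd1, which encodes the decarboxylase that supplies the aminopropyl groups of spermidine and spermine, rose from 30.9, 25.5, 25.7 and 36.3 CPM to 104, 85.4 and 105 CPM with the Odc label and had 41.4, 49.8 and 67.7 CPM with the Dohh label against 41.96, 36.9 and 41.2 CPM, a difference of -1.33 (standard error 0.32, adjusted p = 0.00293). Its copy Amd2 could share reads and had a difference of -1.44 (adjusted p = 0.301). Azin1, which encodes antizyme inhibitor 1, a protein that protects ODC from degradation, had 208, 191 and 229 against 125, 107, 114 and 129 CPM with the Odc label and 97.5, 96.5 and 108 against 104, 105 and 134 CPM with the Dohh label. Its difference of -1.005 (standard error 0.24, adjusted p = 0.00234) sat on the 2-fold threshold and fell short of it without any 1 of 7 libraries, with differences between -0.88 and -0.98.

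Smox, which encodes spermine oxidase, the enzyme that turns spermine back into spermidine, fell from 271, 295, 275 and 283 CPM to 22.99, 82.04 and 52.2 CPM with the Odc label, where no libraries overlapped. It had 304, 153 and 179 CPM with the Dohh label against 368, 321 and 337 CPM, a difference of 1.73 (standard error 0.55, adjusted p = 0.023), which was 1.38 (adjusted p = 0.0961) without replicate 1 labelled Dohh-/- and 1.42 (adjusted p = 0.0871 from edgeR's test) without replicate 2 labelled Odc-/-. Mat2a, which makes S-adenosylmethionine, rose with both labels (1.73 and 0.67). Its difference of -1.06 (standard error 0.36, adjusted p = 0.034) was lost without any 1 of 8 libraries, ranging there from -0.84 to -1.04. Odc1 is given above. Sat1 and Oaz2, which encode the polyamine acetyltransferase and an antizyme, had an adjusted p below 0.05 but a difference under 2-fold (0.79 at adjusted p = 0.0296 and 0.89 at adjusted p = 0.00882), and both fell with either label. Srm, spermidine synthase, rose with both (2.25 and 1.42) without a called difference (-0.83 at adjusted p = 0.34).

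None of 6 hypusine pathway genes was called, against 10.3% of all genes. All 6 had both effects above 0 at an adjusted p below 0.05, and the effect was past 2-fold in 2 with the Odc label and 3 with the Dohh label, where 10.0% and 13.4% of all genes were called higher. Eif5a had a mean of 2046 CPM with the Odc label against 1147 in WT and 1977 with the Dohh label against 926 in WT, a difference of 0.26 (adjusted p = 0.578). For Dohh the difference was -0.08 (adjusted p = 0.9).

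**Figure D4:**
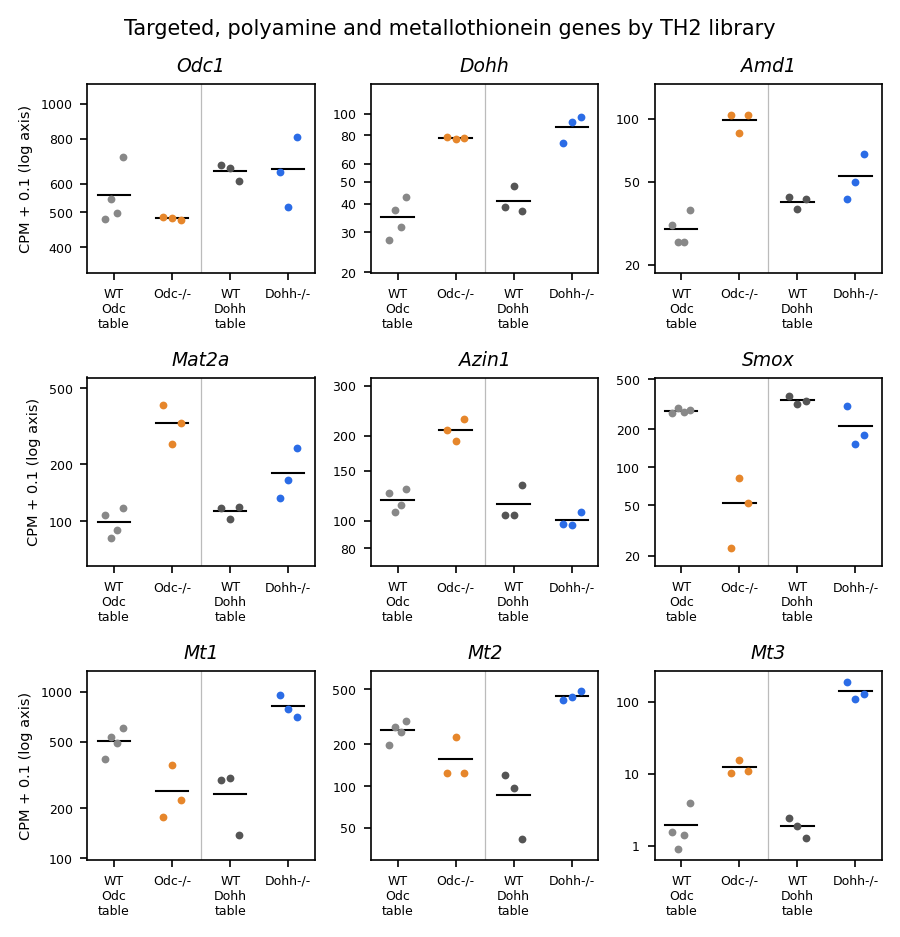
Each panel is 1 gene in the 13 TH2 libraries, in CPM plus 0.1 on a log axis, with points for libraries and bars for group means; a grey line parts the tables. Odc1 had no called Odc effect, Dohh was higher with both labels, Amd1, Mat2a and Azin1 were highest and Smox lowest with the Odc label, and Mt1 and Mt2 moved in opposite directions while Mt3 rose in both deleted groups.

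No member was called among 80 cytosolic ribosomal protein genes, 75 mitochondrial ribosomal protein genes, 20 cytosolic aminoacyl-tRNA synthetase genes and 8 mitochondrially encoded mRNAs, against 10.3% of all genes. Their median differences were -0.18, 0.12, 0.22 and 0.15, where the median of all genes was 0.018. Of 27 ribosome biogenesis genes (median effects 1.62 with the Odc label and 1.08 with the Dohh label, called higher in 23 and 15 against 10.0% and 13.4% of all genes), Polr1b and Gnl3 were called below 0 (-1.23 at adjusted p = 0.0245 and -1.09 at adjusted p = 0.0463). Of 79 nuclear-encoded respiratory chain genes 2 were called, Cox7a1 and Uqcrq (2.46 at adjusted p = 0.0067 and 1.33 at adjusted p = 0.0312), and of 40 cell cycle genes 2, Ccnd1 and Cdkn2c. Each of these 6 calls except that of Cox7a1 was lost without any 1 of 1 (Cdkn2c) to 11 (Gnl3) libraries, with adjusted p up to 0.154.

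Of 34 tested genes of the integrated stress response, 8 were called above 0 and none below, against 6.20% and 4.08% of all genes, among them Chac1 and Trib3, targets of the factors ATF4 and CHOP (2.32 with standard error 0.55 and adjusted p = 0.00242 and 2.06 with standard error 0.50 and adjusted p = 0.00277), and Nupr1 and Slc7a3. In each of Chac1 and Trib3 the Dohh effect alone passed (2.69 and 2.35). Nupr1 lost its call without any 1 of 9 libraries (adjusted p up to 0.142) and Slc7a3 without replicate 2 labelled Odc-/- (1.73, adjusted p = 0.0524). The 8 became 2 without replicate 2 labelled Odc-/-, 4 without WT replicate 3 of the Dohh table, 5 without replicate 1 labelled Dohh-/- or WT replicate 4 of the Odc table, and 0 in Xist-negative libraries. Of 27 ER chaperone and unfolded protein response genes, 6 were likewise called above 0 and none below (3 without replicate 3 labelled Dohh-/-). Ero1l, an oxidase of ER protein folding, differed through its fall with the Odc label (-1.62, difference 2.30 with standard error 0.61 and adjusted p = 0.00622), and Pdia6 and Hsp90b1, ER folding proteins, through their rise with the Dohh label (differences 1.29 at adjusted p = 0.000353 and 1.07 at adjusted p = 0.00189), that of Hsp90b1 being 0.95 and under 2-fold without replicate 3 labelled Dohh-/-.

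Interferon response genes were called above 0 in 5 of 34 and below in 4, against 6.20% and 4.08% of all genes, with Isg20 and Usp18 falling with the Odc label (differences 2.91 at adjusted p = 0.000313 and 2.04 at adjusted p = 0.000422), Irf7 rising with the Dohh label (2.12 at adjusted p = 0.00332), and Gbp2, a GTPase gene, opposed the other way (0.98 and -0.93). In Xist-negative libraries 2 of the 34 were called. Among 22 p53 targets, 4 were called below 0 and 1 above, against 4.08% and 6.20% of all genes. Fas, Zmat3 and Phlda3 were among the 4 (-1.96 at adjusted p = 4.19e-05, -1.62 at adjusted p = 0.000101 and -1.26 at adjusted p = 0.0168). The call of Phlda3 was lost without replicate 2 labelled Odc-/- (-0.999) or WT replicate 2 of the Dohh table (-1.12, adjusted p 0.051 to 0.0963). Perp was opposed with a positive difference (1.56 at adjusted p = 0.000476). The count of 5 p53 targets became 3 without replicate 2 labelled Odc-/- and 2 in Xist-negative libraries. Of 40 TCA cycle and acetyl-CoA genes 5 were called (12.5%, near the 10.3% of all genes), and 2 in Xist-negative libraries. Mdh1, cytosolic malate dehydrogenase, was opposed (-0.78 and 0.39), Idh1 and Me1 were above 0 (1.33 at adjusted p = 0.0105 and 2.06 at adjusted p = 0.0152) and Pdk2, a kinase that inhibits pyruvate dehydrogenase, below 0 (-2.15 at adjusted p = 0.00096). Without WT replicate 4 of the Odc table the difference of Me1 was 1.71 (adjusted p = 0.0533).

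Among chromatin genes, 1 of 30 acetyltransferases, deacetylases and BET readers (Brd3, -1.02 at adjusted p = 5.24e-05) and 1 of 14 genes of PRC2 and DNA methylation (Dnmt3a, opposed, -1.20 at adjusted p = 0.000629) were called, where 10.3% of all genes were. Both lie near the 2-fold threshold, with -0.918 to -0.995 for Brd3 without any 1 of 4 libraries and -0.98 for Dnmt3a without replicate 2 labelled Odc-/-. AP-1, BATF, IRF, NR4A and EGR factors were called below 0 in 4 of 21 (4.08% of all genes), including Nr4a1, an early gene of T cell receptor signalling (0.68 with the Odc label and -0.79 with the Dohh label), and in 2 without replicate 2 labelled Odc-/-. IL-2 receptor and SOCS genes were called in 3 of 15 (20%, against 10.3% of all genes). Among them Stat5a was lower (-1.73 at adjusted p = 5.74e-08) and Il2ra opposed (1.08 at adjusted p = 0.0116), though Il2ra was at 0.95 without replicate 1 labelled Dohh-/- and 0.99 without replicate 2 labelled Odc-/-. MYC network genes were called in 2 of 12 (16.7%, against 10.3% of all genes). Of these Mycn was opposed (3.14 with standard error 0.50 and adjusted p = 1.44e-05) and the other, Mnt, was under 2-fold without WT replicate 1 of the Dohh table (-0.938) or replicate 4 labelled Odc-/- (-0.980). Cytokines outside the lineage programs were called in 7 of 19, 4 above and 3 below 0 (10.3% of all genes were called), and in 3 in Xist-negative libraries. Calls came from 1 of 30 glycolysis and hypoxia genes (Bnip3), 1 of 30 sterol and fatty acid synthesis genes (Fasn) and 2 of 31 autophagy and lysosome genes, against the same 10.3% of all genes. Bnip3 lost its call without replicate 1 labelled Dohh-/- or replicate 2 labelled Odc-/- (adjusted p 0.0524 and 0.0585), and Fasn without any 1 of 4 libraries (-0.809 to -0.961, adjusted p up to 0.0837). Without replicate 3 labelled Odc-/-, 4 members were called in each of the MYC, glycolysis and autophagy lists.

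**Figure D5:**
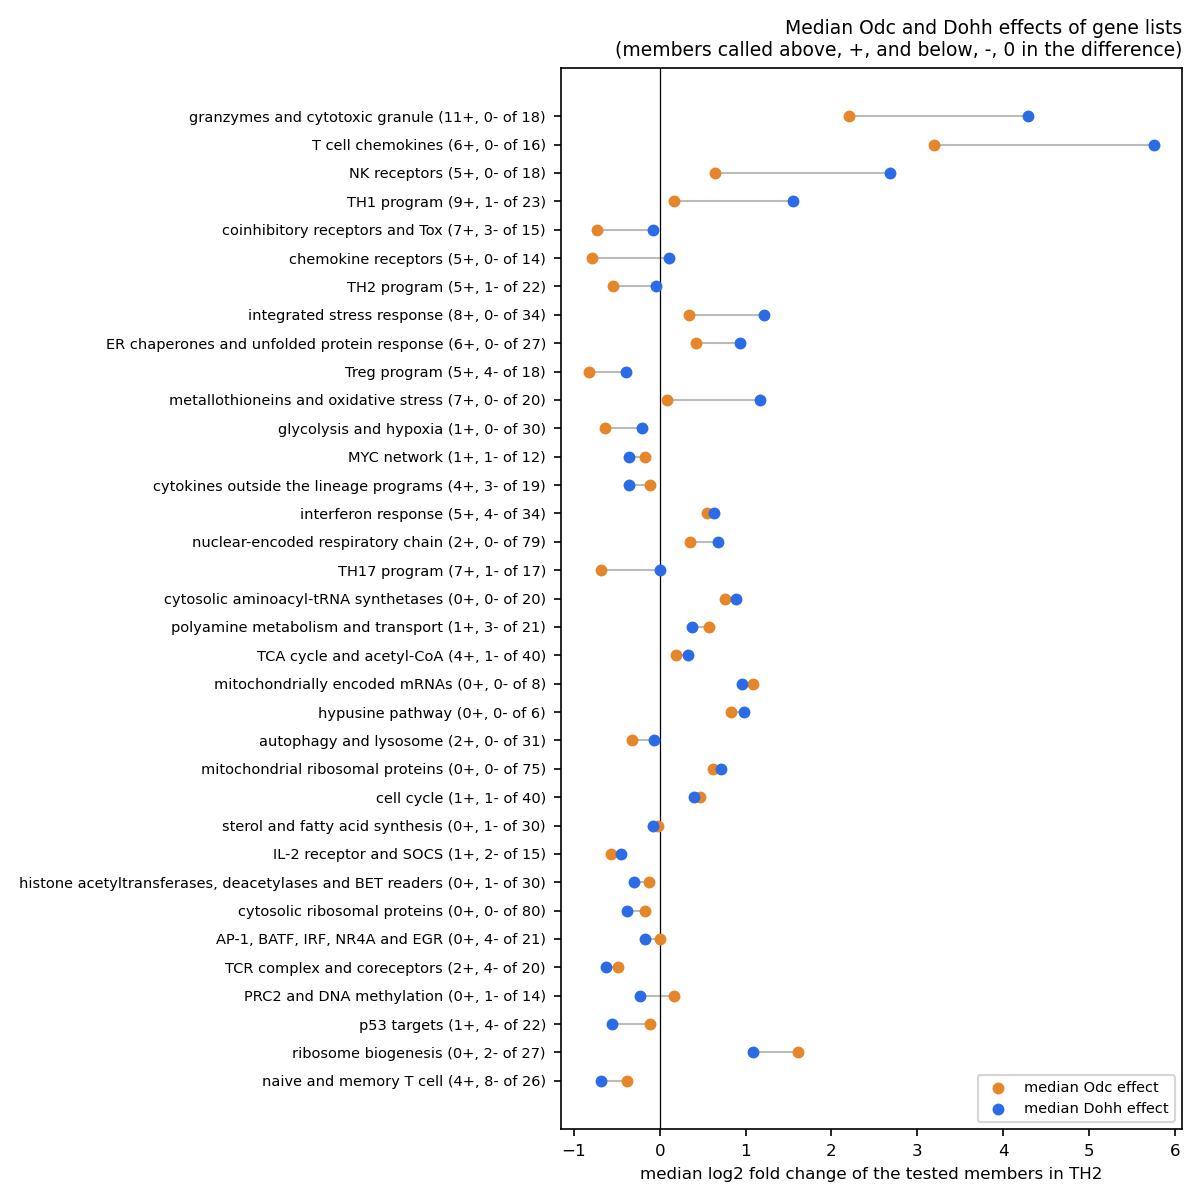
For each gene list, the x axis gives the median log2 fold change of its tested members in TH2 libraries with the Odc label (orange) and the Dohh label (blue), and the row label counts members called above and below 0 in the difference. The blue point lies to the right of the orange point for granzymes (medians 2.20 and 4.29) and T cell chemokines (3.19 and 5.75), and to the left for ribosome biogenesis (1.62 and 1.08).

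The differences were compared with those of the other subsets, each made from its own libraries of the same tables. With the same sign, 553 of the 1328 genes were also called in TH1 cells (41.6% of the TH2 calls and 37.8% of the TH1 calls), 445 in TH17 cells (33.5% and 24.7%) and 520 in Treg cells (39.2% and 23.0%), and 186 were called in all 4 subsets. Calls of opposite sign numbered 7, 39 and 38. Over all 12924 genes tested, calls of either sign numbered 1462 in TH1, 1803 in TH17 and 2261 in Treg cells. A further test was made of the TH2 difference minus the mean difference of TH1, TH17 and Treg cells. Of the 1328 genes, which are 10.3% of genes tested, it called 164. Among all genes it called 426 (3.30%), 266 above and 160 below 0. Without replicate 2 labelled Odc-/- it called 244 genes, without replicate 1 labelled Dohh-/- 264, and in Xist-negative libraries 37.

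For Il17f the TH2 difference exceeded the mean of the others by 4.42 (standard error 0.96, adjusted p = 0.00417), the single differences being -1.25 in TH1, 1.11 in TH17 and 3.35 in Treg cells. Pdpn (4.26 with standard error 0.71 and adjusted p = 0.000213), Nos2 (3.11 with standard error 0.88 and adjusted p = 0.0302), Il18r1 (2.49 at adjusted p = 0.00326) and Entpd1 (2.50 at adjusted p = 0.00999) also had a difference beyond the mean of the others, though that of Nos2 was 4.41 in Treg cells, near the 5.18 of TH2 cells, and 0.55 in TH1 and 1.23 in TH17 cells. Below 0 these were Bcl6 (-3.34 with standard error 0.67 and adjusted p = 0.00182), Tnfsf4 (-2.82 with standard error 0.76 and adjusted p = 0.0215), Lrig1 (-2.19 with standard error 0.38 and adjusted p = 0.000321) and Tnfsf8 (-1.82 with standard error 0.48 and adjusted p = 0.0194). The difference of Tnfsf8 was also below 0 in TH1 (-2.67) and Treg cells (-2.84), and 0.079 in TH17 cells. That of Lrig1 was -4.08 in TH2 cells and also below 0 in TH1 (-2.49), TH17 (-1.38) and Treg cells (-1.78). In TH1, TH17 and Treg cells Il18r1 had differences of 1.58, 1.14 and 0.43, and Entpd1 of 1.955, 0.21 and 0.76. Bcl6 had differences of 1.04, 0.30 and -1.11 in TH1, TH17 and Treg cells against -3.26 in TH2 cells. For Il17a the further test did not pass (2.38 with standard error 1.09 and adjusted p = 0.217), its differences being 1.43, 4.62 and 4.80, nor did it for Il5 (4.69 with standard error 1.69 and adjusted p = 0.0975).

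The position of genes near the targeted loci was also counted. Within 5 Mb of Odc1, 4 of 23 tested genes were called (17.4%), and within 5 Mb of Dohh, 18 of 169 (10.7%), against 10.3% of all genes. Over the called genes, the WT libraries of the tables differed by more than 2-fold in 190 (14.3%, against 6.35% of all genes), and in 117, and in 543 of all 12924 genes tested, the WT groups differed by more than 2-fold against the direction of the difference while the deleted groups did not differ by more than 2-fold along it.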

How the data were processed

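The raw counts of reads per gene deposited by the authors, in 1 table for Odc and 1 for Dohh mice, came from stranded mRNA libraries (TruSeq, HiSeq 3000), and the submitters' processing notes name STAR, featureCounts, deepTools, DESeq2 and mm10; versions, annotation release and strand setting are not given in the sources used here. Every column belonged to a sample (0 columns of no sample). Rows are genes, 47224 of 47937 IDs matched a symbol, and the unmatched held 0.0754% of TH2 counts. From these counts, 1 edgeR 4.0.16 quasi-likelihood fit (TMM scaling, robust, R 4.3.3) was made over the 16 groups of both tables, so that all groups shared the estimate of spread, and p-values were adjusted by Benjamini-Hochberg over 12924 genes. The low-count filter was run in each table (13839 and 13897 genes). Levels are CPM on TMM-scaled library sizes, given per library, and effects are log2 fold changes. Positions are GRCm38, the assembly of the gene annotation used. Opposed genes were called in the difference and had adjusted p below 0.05 with opposite signs in both effects.

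Named genes were the 8 largest differences in each direction among the ranked genes, the 6 largest in each direction among opposed genes, up to 4 called members of each list, and a set of genes named whatever their values (Odc1, Dohh, Ifng, Tbx21, Gata3, Il4, Il5, Il13, Il17a and Foxp3), 129 in all. Some genes the rule covers are not reported here. Another 28 list members were named after their values were seen (Actn1, Amd2, Bach2, Cd200, Cd27, Ctla4, Ctsw, Eif5a, Gbp2, Gsr, Gzma, Gzmb, Hmox1, Id2, Il6ra, Klf3, Lef1, Lta, Maf, Nkg7, Oaz2, Prdm1, Prf1, Runx3, Sat1, Srm, Srxn1 and Vsir). The members, the 35 gene lists and the 7 marker lists were chosen with earlier results of these data known. Reads of overlapping genes could not be told apart. The share of exon length overlapped by another gene was 73.5% for Mt2, 47.5% for Dohh, 31.5% for Foxp3, 27.1% for Il5, 26.0% for Ifng and 23.36% for Ccnd1. It was 22.3% for Nrn1, 22.25% for Bnip3, 18.75% for Spp1, 16.3% for Tuba8, 15.67% for Hsp90b1, 13.75% for Lef1 and 12.9% for Sys1. On simulated counts of 12924 genes for the TH2 difference, the test recovered 183 of 200 genes changed by 2 on the log2 scale, with 9 false calls. The changed genes were drawn from those above a mean count limit. Before the change each gene had the same mean in all groups of a table, and the same spread in every group. These rates therefore need not hold for the real libraries. DESeq2 1.42.0 and limma 3.58.1 were alternatives.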

Additional observations from a re-analysis of the deposited data

Results flagged for a closer look

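The difference in TH2 cells departed from the mean difference of TH1, TH17 and Treg cells, by the test of that departure, in 426 genes. Among the named genes the TH2 difference was higher by 4.42 for Il17f, 3.11 for Nos2, 4.26 for Pdpn, 1.81 for Il10, 2.49 for Il18r1, 2.50 for Entpd1, 3.74 for Gpr83, 3.02 for S1pr1, 4.43 for Nupr1, 1.89 for Perp, 2.12 for Ctsw and 3.06 for Maf, all on the log2 scale. It was lower, with departures of -1.82 for Tnfsf8, -2.19 for Lrig1, -2.82 for Tnfsf4, -3.34 for Bcl6, -2.37 for Id3, -1.16 for Azin1, -1.16 for Dnmt3a, -1.59 for Cdkn2c and -2.03 for Gbp2. Gpr83 is a case where the TH2 cells differed less than the other subsets. Its single differences were -2.33 in TH2 cells against -5.68 in TH1, -7.72 in TH17 and -4.82 in Treg cells. For Il10 they were 2.74 in TH2, 2.24 in TH1 and 2.00 in Treg cells, and -1.46 in TH17 cells. Those of Nupr1 were 1.99 in TH2 and 0.50 in TH1 cells, and -3.05 in TH17 and -4.75 in Treg cells. A departure is therefore not always particular to TH2 cells.

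Relative to the range of the group, a single library stood apart from the other WT libraries of the Odc table, the group of 4, for 14 of the 157 named genes, where chance gives about 1 in 20. In 11 of the 14 that library was WT replicate 4, and between libraries of this group the chi-square of the counts per degree of freedom was 12 to 18.1 for pairs with replicate 4 and 4.55 to 8.82 for the other pairs. The outlying values were 17.0 CPM for Dgkk, 72.2 for Il5, 2.83 for Ocstamp, 310 for Tnfsf8, 229 for Izumo1r, 0.666 for Klra5, 587 for Cd4, 23.0 for Trib3, 396 for Pdia6, 38.5 for Polr1b, 1.13 for Osgin1, 27.6 for Fcer2a, 66.2 for Gsr and 143 for Lef1. For Gsr the 4 libraries ran only from 64.1 to 66.2 CPM.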

How the results depend on the processing

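The 1328 differences became 516 in Xist-negative libraries, 884 with a mean count of at least 50, 259 with edgeR's glmTreat test of a 2-fold difference, 2375 with no fold threshold and 808 at adjusted p below 0.01. The 187 opposed genes became 55 (Xist-negative), 83 (glmTreat) and 75 (adjusted p below 0.01). The 3078 genes of the Odc effect became 1848, 1119 and 6935, and the 3401 of the Dohh effect 1988, 1475 and 7068, with a mean count of at least 50, glmTreat and no fold threshold. The 426 departures of TH2 cells from the other subsets became 37 (Xist-negative), 40 (glmTreat) and 167 (adjusted p below 0.01). The share of differences above 0 was 46.9% in Xist-negative libraries and 48.8% with no fold threshold, against 801 of 1328. With each TH2 library left out, the counts ran from 946 to 1513 for the difference, 114 to 228 for opposed genes, 2628 to 3299 and 2955 to 3638 for the Odc and Dohh effects and 244 to 590 for the departures. DESeq2 called 1442 differences, 1298 of them among the 1328. In Xist-negative libraries 422 of the 1328 were called and 5 had the other sign, and of 157 named genes 79 lost the call, while Oas1a went from 3.41 to -0.30. The 157 include genes that were not called to begin with and so had no call to lose. Differences that were never called changed sign near 0. That of Dohh was 0.117 in Xist-negative libraries and ran from -0.191 to 0.047 with a library left out, and that of Il4 0.024 with a mean count of at least 50, 0.074 with the replicate block and -0.213 to 0.165 with a library left out. Same-numbered libraries did not deviate together (correlations -0.0904 to 0.107), and the replicate block gave 1406 differences and 218 opposed genes. At these depths 3 counts are 0.258 to 0.425 CPM. The cause of these changes was not tested.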
